A study of Homo sapiens with 6 samples.

Results

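A set of 10 genes of ferritin and iron handling was followed in JJN3, a human cell line of myeloma, the cancer of plasma cells, carrying a CKS1B shRNA or a scrambled shRNA. The genes were FTH1, its pseudogene FTH1P5, FTL, TFRC, SLC40A1, SLC11A2, ACO1, IREB2, HMOX1 and NCOA4. A probe set was used where the platform annotation named 1 gene by Entrez ID and that gene was one of the 10. This gave 19 probe sets for 8 genes, of 54613 probe sets and 19777 named genes on the array. No probe set in the annotation used here named FTH1 or IREB2 alone, so the levels of these 2 genes were not analysed here, and FTH1P5 could not be set against FTH1. The set was put together after FTH1P5 had been seen to be higher on arrays A and C of the CKS1B shRNA. The values of FTH1P5 are therefore a description, with no test.

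Total RNA was measured on 6 Affymetrix U133 Plus 2.0 arrays. JJN3 cells with an shRNA against CKS1B were on 3 arrays and JJN3 cells with a scrambled control shRNA on 3, and a virus carried both shRNAs into the cells. CKS1B encodes a small protein that binds cyclin-dependent kinases and the SKP2 ubiquitin ligase. Titles letter the arrays A, B and C, and each letter occurs in both groups with consecutive title numbers. Whether a letter pairs arrays is not stated. Scrambled array B has a further, unexplained word in its title. The labels give no time after transduction, no shRNA sequence and no separate cultures. The p-values therefore set a group difference against the scatter between these arrays, and that scatter may be technical. Of 8 plasma cell markers, the lowest scrambled values were 7783 for IRF4, 5375 for XBP1, 4695 for TNFRSF17, 2724 for PRDM1 and 2403 for MZB1. They were 552 for SDC1, 366 for CD38 and 63.2 for SLAMF7, the last below the brightness filter used here (a value of 145.8). In bulk RNA, fewer cells expressing a gene and less RNA per cell cannot be told apart.

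Cells take up iron as transferrin through the transferrin receptor, move it out of endosomes through a divalent metal transporter, store it inside ferritin shells and export it through ferroportin. Ferritin shells are built of heavy chains, which oxidise iron, and light chains, which help to form the mineral core. When iron is scarce, iron regulatory proteins bind hairpins called iron responsive elements, block translation of the ferritin chains and ferroportin, and stabilise the transferrin receptor mRNA. The arrays measured transcripts only, so the translational arm of this control lay outside the measurement. Plasma cells carry a heavy load of protein secretion, and ferritin and haem oxygenase transcripts are also known to rise under oxidative stress.

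CKS1B shRNA array B differed from the other arrays as a whole, which touches every gene below. Its log2 values correlated with those of the other 5 arrays at 0.577 to 0.610 (Pearson, over probe sets). Bright probe sets were compressed on it: the 500 probe sets brightest on the scrambled arrays had a median value of 3004 on CKS1B shRNA array B, and of 18464 and 30459 on arrays A and C, with 15304 to 16918 for the scrambled shRNA. CKS1B shRNA array C read the brightest probe sets high. Actin control signal at the 3' end over that at the 5' end, a sign of RNA quality, was 12.4 on CKS1B shRNA array B and 1.11 and 2.93 on arrays A and C, with 1.05 to 1.66 for the scrambled shRNA. CKS1B itself read 481, 269 and 828 on arrays A, B and C of the CKS1B shRNA, against 8266, 8441 and 7294 on the scrambled arrays. Differences below are given for 6 arrays and again without CKS1B shRNA array B, and the part of RNA quality in them was not tested.

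The ferritin heavy chain pseudogene read far higher on 2 CKS1B shRNA arrays and far lower on the remaining one. FTH1P5 is an intronless copy of the heavy chain gene. Its probe set, 211628_x_at, carries the suffix Affymetrix gives to probe sets that may cross-hybridise, so signal from other heavy chain sequences cannot be told apart from that of FTH1P5. It read 17236, 277 and 28536 on arrays A, B and C of the CKS1B shRNA, against 4769, 4119 and 2254 on arrays A, B and C of the scrambled shRNA. Arrays A and C of the CKS1B shRNA lay above all scrambled arrays, and array B lay below all of them. The probe set stood at percentile 99.5 of all probe sets on arrays A and C of the CKS1B shRNA and at 43.0 on CKS1B shRNA array B, against 96.8, 96.3 and 93.6 on the scrambled arrays. On the log2(value + 16) scale the difference, CKS1B shRNA minus scrambled shRNA, was 0.56 (SE 1.55, n = 3 each) with 6 arrays. Without CKS1B shRNA array B it was 2.64 (SE 0.34, n = 2 and 3), or 6.24-fold. Quantile normalization of all 6 arrays brought the difference to -0.04, and of the 5 arrays to 2.24.

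FTL, the ferritin light chain, read 18553 or more through its brightest probe set on 5 of the 6 arrays, and 11496 or more through its other one. Its control element is shown here because iron acts through it on translation of the light chain. The element also lies within the RefSeq promoter window (GRCh38.p14, 250 bases before to 50 after the start). The loop motif CAGTGN was searched on the transcribed strand in the 50 bases after the start. It was present in 2 of 12 windows of the 7 genes that had one, and in 6.36% of the 35116 windows of all genes. Capitals mark the loop, and ALAS2, the erythroid enzyme that opens haem synthesis, is shown as a further transcript known for such an element. SLC40A1 and EPAS1, also known for one, had 1 window each without these letters, which says only that the letters are not in that window.
FTL: gtctcttgcttcaaCAGTGTttggac
ALAS2: cattcgttcgtcctCAGTGCagggcaacag
NCOA4: gctctgaaagctgaCAGTGCtctaactgcg
The FTL site lies at chr19:48965333-48965358 on the plus strand, the ALAS2 site at chrX:55030942-55030971 and the NCOA4 site at chr10:46019958-46019987, the last 2 on the minus strand. In FTL and in ALAS2 all 5 bases on either side of the loop can pair, counting G with T, and a C precedes the stem. In NCOA4 2 of 5 can pair and there is no such C, so only the loop letters are shared.

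No FTL difference passed an adjusted p of 0.05 in limma, with 6 arrays or without CKS1B shRNA array B. Its brightest probe set, 212788_x_at, read 22276, 637 and 48262 on arrays A, B and C of the CKS1B shRNA, against 18553, 20446 and 22816 on the scrambled arrays. Array A of the CKS1B shRNA fell inside the range of the scrambled arrays, array C above it and array B far below it. The log2 difference was -1.21 (SE 1.45, limma adjusted p = 0.933) with 6 arrays and 0.67 (SE 0.31, adjusted p = 0.521) without CKS1B shRNA array B. After quantile normalization of those 5 arrays it was -0.03. The other FTL probe set, 213187_x_at, read 15355, 2467 and 18870 with the CKS1B shRNA and 14012, 14163 and 11496 with the scrambled shRNA. Its log2 difference was -0.56 with 6 arrays and 0.37 without CKS1B shRNA array B. In those 5 arrays its groups did not overlap by value, as for 21.7% of all probe sets. Its percentiles there did overlap, at 99.35 and 99.26 with the CKS1B shRNA against 99.425, 99.48 and 99.23 with the scrambled shRNA. By percentile, 212788_x_at stood at 99.7 and 99.8 on arrays A and C of the CKS1B shRNA, against 99.7 to 99.9 on the scrambled arrays.

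NCOA4, the receptor that delivers ferritin to autophagosomes for breakdown, read slightly higher on arrays A and C of the CKS1B shRNA and low on array B. It read 6368, 685 and 6757 with the CKS1B shRNA, against 5250, 5810 and 4990 with the scrambled shRNA. Its log2 difference was -0.78 (SE 0.84, adjusted p = 0.933) with 6 arrays, and leaving out CKS1B shRNA array B gave 0.30 (SE 0.20, adjusted p = 0.632). The groups overlapped with 6 arrays and did not overlap in the 5 arrays, where 28.3% of all genes tested did not overlap. By percentile they overlapped in the 5 arrays too, at 97.59 and 97.80 with the CKS1B shRNA against 97.20, 97.63 and 97.64.

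**Figure D1:**
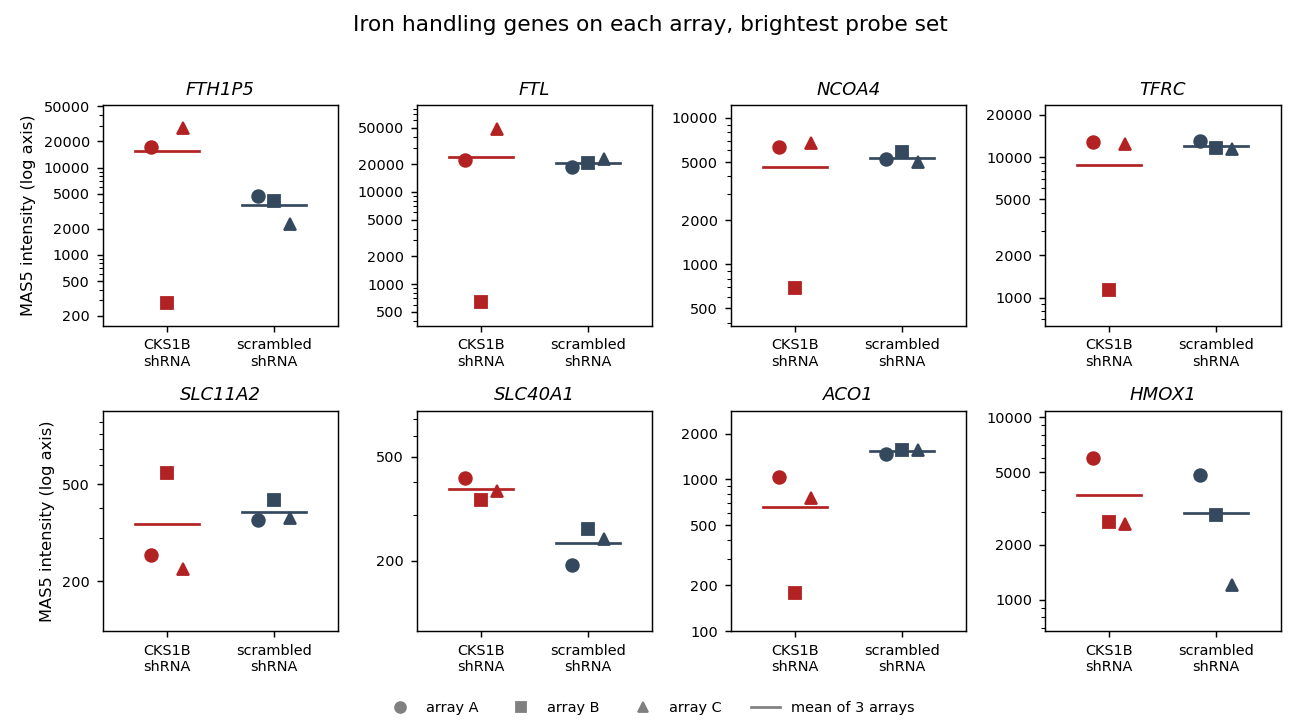
MAS5 intensity (log axis, its range set per gene) of the brightest probe set over 6 arrays for 8 iron handling genes; each point is 1 array, its shape the letter in the title, and the line the mean of 3 arrays. FTH1P5 lies above all scrambled arrays on arrays A and C of the CKS1B shRNA and at 277 on array B, while ACO1 lies below and SLC40A1 above the scrambled arrays on all 3.

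Through its brightest probe set the transferrin receptor differed little between the groups apart from CKS1B shRNA array B, and its probe sets disagreed. TFRC, whose mRNA is stabilised by iron regulatory proteins when iron is scarce, read 12870, 1137 and 12355 through 208691_at on arrays A, B and C of the CKS1B shRNA. On the scrambled arrays it read 12913, 11495 and 11354. CKS1B shRNA arrays A and C lay within the scrambled range, and array B far below it. The log2 difference was -1.07 (SE 0.92, adjusted p = 0.933) with 6 arrays, and leaving out CKS1B shRNA array B gave 0.08 (SE 0.20, adjusted p = 0.909), or 1.06-fold, and -0.26 after quantile normalization of those 5 arrays. A second bright probe set, 207332_s_at, read 10898, 1874 and 5636 with the CKS1B shRNA and 12090, 9624 and 9540 with the scrambled shRNA, a difference of -0.40 without array B. The remaining 3 TFRC probe sets were dimmer, and their differences without array B ran from -1.10 to 0.89. Of these, 240686_x_at read 112, 186 and 120 with the CKS1B shRNA against 59.8, 49.2 and 57.4 with the scrambled shRNA, with no overlap, and its mean log2 value lay below the brightness filter (a value of 145.8).

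SLC11A2, also called DMT1, carries ferrous iron out of endosomes, and its 5 probe sets disagreed. The one brightest over 6 arrays, 203124_s_at, read 255.5, 554 and 224 with the CKS1B shRNA and 357, 432 and 362 with the scrambled shRNA. Arrays A and C of the CKS1B shRNA lay below every scrambled array, and array B above. Its log2 difference was -0.26 (SE 0.42, adjusted p = 0.938) with 6 arrays and -0.64 without CKS1B shRNA array B. The next 3 probe sets also gave negative differences with 6 arrays, from -1.16 to -0.20, and all 4 were negative without CKS1B shRNA array B, from -0.68 to -0.14. The last, 237106_at, went the other way: it read 186, 671.5 and 188.5 with the CKS1B shRNA against 41, 102 and 15 with the scrambled shRNA, with no overlap. Its log2 difference was 2.36 (SE 0.81, unadjusted p = 0.0141, adjusted p = 0.9999 over all probe sets in limma), or 1.77 without CKS1B shRNA array B, and its mean lay below the brightness filter.

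SLC40A1, which encodes ferroportin, the cellular iron exporter, read higher on every CKS1B shRNA array through its brighter probe set. It read 416, 343 and 369.5 on arrays A, B and C of the CKS1B shRNA, against 193, 265 and 243 on the scrambled arrays, and the groups did not overlap. Means were 376 ± 37.2 with the CKS1B shRNA and 234 ± 36.9 with the scrambled shRNA (SD, n = 3 each). The log2 difference was 0.66 (SE 0.36, adjusted p = 0.933) with 6 arrays and 0.72 (SE 0.36, adjusted p = 0.540) without CKS1B shRNA array B. By percentile the groups overlapped, at 74.0, 50.9 and 71.5 with the CKS1B shRNA against 60.7, 65.3 and 55.4 with the scrambled shRNA. The dimmer probe set, 233123_at, read 170.5, 12.7 and 190 with the CKS1B shRNA and 172, 181 and 227 with the scrambled shRNA, so it did not follow the brighter one.

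ACO1, which is cytosolic aconitase when it holds an iron-sulfur cluster and iron regulatory protein 1 when it does not, read lower on every CKS1B shRNA array. Through 207071_s_at it read 1038, 179 and 755 on arrays A, B and C of the CKS1B shRNA, against 1463, 1555 and 1567 on the scrambled arrays. Means were 657 ± 438 with the CKS1B shRNA and 1528 ± 57.0 with the scrambled shRNA (SD, n = 3 each). The scrambled values were close together and the groups did not overlap, by value or by percentile (85.1, 28.9 and 81.6 with the CKS1B shRNA against 88.6, 89.1 and 90.4). The log2 difference was -1.51 (SE 0.60), with an unadjusted p of 0.0360 and an adjusted p of 0.933 over all genes in limma. Without CKS1B shRNA array B it was -0.78 (SE 0.24, adjusted p = 0.453), or 1.71-fold lower. The other ACO1 probe set, 237622_at, was dim and read 88.8, 633 and 71.1 with the CKS1B shRNA against 82.6, 143 and 242.5 with the scrambled shRNA, with overlap.

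HMOX1, the stress-induced haem oxygenase that frees iron from haem, varied as widely within the groups as between them. It read 5993, 2649 and 2603 on arrays A, B and C of the CKS1B shRNA, against 4786, 2900 and 1204 on the scrambled arrays. The log2 difference was 0.43 (SE 0.60, adjusted p = 0.933) with 6 arrays, and leaving out CKS1B shRNA array B gave 0.62 (SE 0.53, adjusted p = 0.696). Without scrambled array C it was -0.11, so 1 array set its direction. On CKS1B shRNA array B HMOX1 kept a high rank, as did the FTL probe set 213187_x_at at percentile 96.7, while FTL 212788_x_at stood at 73.8 there. HMOX1 stood at percentile 97.4, 97.1 and 93.7 on arrays A, B and C of the CKS1B shRNA, against 96.8, 94.4 and 87.5 on the scrambled arrays.

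**Figure D2:**
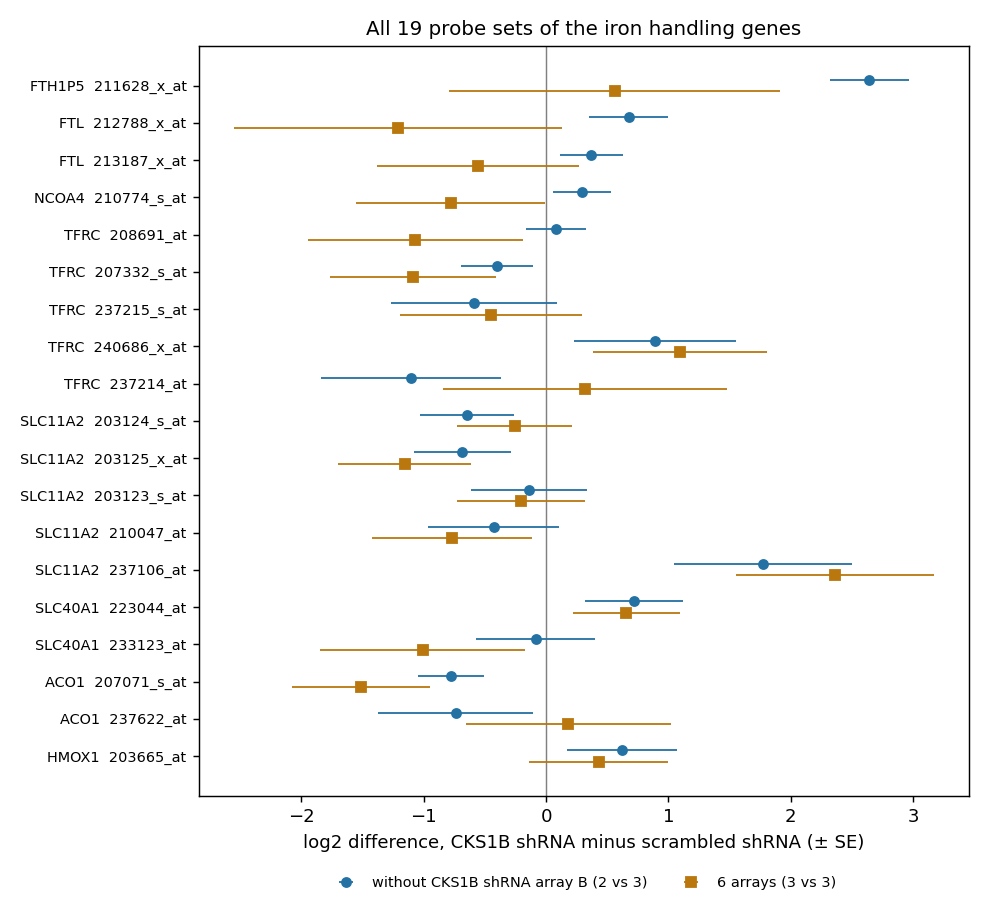
Log2 difference (CKS1B shRNA minus scrambled shRNA, ± SE from limma over all 54613 probe sets) for the 19 probe sets, grouped by gene; circles leave out CKS1B shRNA array B and squares use 6 arrays. FTH1P5 has the highest circle, at 2.64, and the FTL and NCOA4 circles and squares lie on opposite sides of 0.

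The members gave no common direction. FTH1P5, whose own values led to the choice of the set, is left out of the counts of this paragraph. With 6 arrays 2 of the other 7 genes were higher and 5 lower, with a median log2 difference of -0.78, against a median of -0.08 over all 12663 genes tested. None of the 7 passed an adjusted p of 0.05 in limma, where 0% of all genes did, and 1 (ACO1) had an unadjusted p under 0.05, as did 2.95% of all genes. No overlap between groups was found in 2 of the 7, SLC40A1 and ACO1, and in 11.3% of all genes. Over the 18 other probe sets 0 passed (0% of all), 2 had an unadjusted p under 0.05 (1.77% of all), and 4 showed no overlap between groups (7.77% of all). Leaving out CKS1B shRNA array B, 5 of the 7 genes were higher and 2 lower (median 0.30, against -0.03 over 12612 genes). None of the 7 genes and none of the 18 probe sets then passed, where 0.0476% of all genes and 0.0201% of all probe sets did. An unadjusted p under 0.05 was found for 1 of the 7 genes, again ACO1 (9.65% of all genes), and for 2 of the 18 probe sets (5.66% of all). No overlap was found in 3 of the 7 genes (28.3% of all) and in 7 of the 18 probe sets (21.7% of all).

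Over the arrays, some member probe sets varied with FTH1P5 and others against it, and probe sets of the same gene often disagreed. Pearson's r of log2 values with FTH1P5 over 6 arrays was 0.885 and 0.911 for the FTL probe sets 212788_x_at and 213187_x_at, and 0.877 for NCOA4. CKS1B shRNA array B was low for all of these, and without it r over 5 arrays was 0.710, 0.935 and 0.941. TFRC through 208691_at gave 0.831 with 6 arrays and 0.608 with 5. ACO1 through 207071_s_at gave 0.565 with 6 arrays and -0.961 with 5, being low where FTH1P5 was high, on arrays A and C of the CKS1B shRNA. SLC11A2 through 203124_s_at ran against FTH1P5, at -0.943 with 6 arrays and -0.906 with 5. Its other probe sets did not follow this, at -0.247 to 0.462 with 6 arrays and -0.684 to 0.888 with 5. SLC40A1 through 223044_at gave 0.251 with 6 arrays and 0.810 with 5, and HMOX1 0.367 and 0.490. The dimmer probe set of SLC40A1, 233123_at, gave 0.774 and -0.469, and that of ACO1, 237622_at, gave -0.940 and -0.812. Apart from 208691_at, the TFRC probe sets ran from -0.939 to 0.629 with 6 arrays and from -0.813 to 0.939 with 5. These values describe arrays that share groups and scaling, and carry no test.

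Among the other genes tested, those most like FTH1P5 over 6 arrays were RTN4, PSMA5, LSR, TXNL4A and IDH3G, with r from 0.990 to 0.993. PSMA5, which encodes a proteasome alpha subunit, read 11740, 4455 and 14687 with the CKS1B shRNA against 9462, 8333 and 7002 with the scrambled shRNA. Over the 5 arrays without CKS1B shRNA array B they were PEMT, SQSTM1, CGRRF1, YIF1A and HM13, with r from 0.9975 to 0.9989. SQSTM1, the selective autophagy receptor p62, read 12294, 12617 and 16099 on arrays A, B and C of the CKS1B shRNA, against 7528, 6791 and 5379 on the scrambled arrays. Unlike FTH1P5, it was high on array B too. These genes were picked for their pattern, so their levels are a description.

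The wider iron pathway was described through 7 lists of 77 genes, of which 70 were named on the array and 61 tested with 6 arrays. None of the 61 passed in either direction in limma, 24 were higher and 37 lower, and 7 showed no overlap between groups (11.3% of all genes tested). Without CKS1B shRNA array B, 0 of 63 passed, 41 were higher and 22 lower, and 17 showed no overlap (28.3% of all genes). The genes named next had the smallest p in each direction of their list with 6 arrays. The balance of higher and lower genes turned in 6 of the 7 lists when CKS1B shRNA array B was left out.

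Among the genes of iron uptake and storage, 5 of 9 were higher and 4 lower (median log2 difference 0.02), and without CKS1B shRNA array B 2 were higher and 7 lower (median -0.20). STEAP3, the endosomal ferrireductase that readies iron for SLC11A2, read 458, 87.2 and 304 with the CKS1B shRNA against 554.5, 559.5 and 843 with the scrambled shRNA (log2 -1.39, adjusted p = 0.933, and -0.75 without array B), with no overlap. SLC11A1, a phagosomal metal transporter, read 299, 689 and 498 against 438, 338 and 263 with the scrambled shRNA (log2 0.45, adjusted p = 0.933, and 0.18 without array B), with overlap. In the list of iron export and the hepcidin axis 2 of 5 were higher and 3 lower (median -0.11), and without that array 3 were higher and 2 lower (median 0.12). FURIN, the protease that processes hepcidin among many other proteins, read 392, 664 and 808 with the CKS1B shRNA, above the 281.5, 203 and 279 with the scrambled shRNA (log2 1.19, adjusted p = 0.933, and 1.11 without array B). TMPRSS6, a protease that restrains hepcidin in liver, read 212, 39.6 and 127 against 176, 232 and 314 with the scrambled shRNA (log2 -1.04, adjusted p = 0.933, and -0.47 without array B).

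Of the genes of iron sensing and ferritin turnover, 3 of 7 were higher and 4 lower (median -0.18), and without CKS1B shRNA array B 6 were higher and 1 lower (median 0.19). TAX1BP1, an autophagy receptor that takes part in ferritin delivery to lysosomes, read 6788, 10788 and 9644 with the CKS1B shRNA, above the 4532, 5070 and 4733 with the scrambled shRNA (log2 0.90, adjusted p = 0.933). Without array B another probe set of TAX1BP1 was the brightest, with a difference of 0.37. CIAO1, of the cytosolic iron-sulfur assembly machinery, read 1484, 113 and 2314 against 2216, 1737 and 1383 with the scrambled shRNA (log2 -1.20, adjusted p = 0.933). Without array B its difference was 0.08, so its direction rested on that array. FBXL5, the iron-sensing F-box protein that marks iron regulatory protein 2 for degradation, read 695, 488 and 414 against 662, 503 and 618 with the scrambled shRNA (log2 -0.18, and -0.13 without array B). FBXL5 was singled out for its role and falls outside the rule. In the mitochondrial list 4 of 10 were higher and 6 lower (median -0.36), and without CKS1B shRNA array B 8 of 11 were higher and 3 lower (median 0.10). FDX2, a ferredoxin of iron-sulfur cluster assembly, had a log2 difference of 0.63 (0.79 without array B) with overlap, and GLRX5, a glutaredoxin that carries clusters, one of -0.76 (-0.31 without array B) without overlap.

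Haem synthesis and handling had 3 of 12 genes higher and 9 lower (median -0.16), and without CKS1B shRNA array B 9 higher and 3 lower (median 0.20). UROD, an enzyme of the porphyrin steps, had a log2 difference of 0.38 with 6 arrays and 0.55 without array B. CPOX, another, had -0.71 with 6 arrays and -0.18 without array B. Of the NRF2 antioxidant programme, which includes ferritin and HMOX1 among its known targets, 5 of 16 were higher and 11 lower (median -0.28). Without CKS1B shRNA array B 11 were higher and 5 lower (median 0.26). MAFG, a small MAF partner of NRF2, read 1287, 1211 and 1640 with the CKS1B shRNA, above the 444, 613 and 1108 with the scrambled shRNA (log2 1.01, adjusted p = 0.933, and 1.09 without array B). NFE2L2, which encodes NRF2, read 2447, 770.5 and 1370 against 2792, 2964 and 1981 with the scrambled shRNA (log2 -0.88, adjusted p = 0.933, and -0.47 without array B). Of other transcripts with reported iron responsive elements 2 were tested with 6 arrays and both were higher, and without CKS1B shRNA array B 2 of 3 were higher and 1 lower (median 0.60). The actin-binding profilin gene PFN2, the one that turned, had a log2 difference of 0.06 with 6 arrays and -0.44 without array B, and was named after its values were seen. CDC42BPA, a kinase that acts on the actin cytoskeleton, read 2212, 3817 and 2765 with the CKS1B shRNA, above the 1490, 1566.5 and 1410 with the scrambled shRNA (log2 0.93, adjusted p = 0.933). Without array B another probe set of CDC42BPA was the brightest, with a difference of 0.60.

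**Figure D3:**
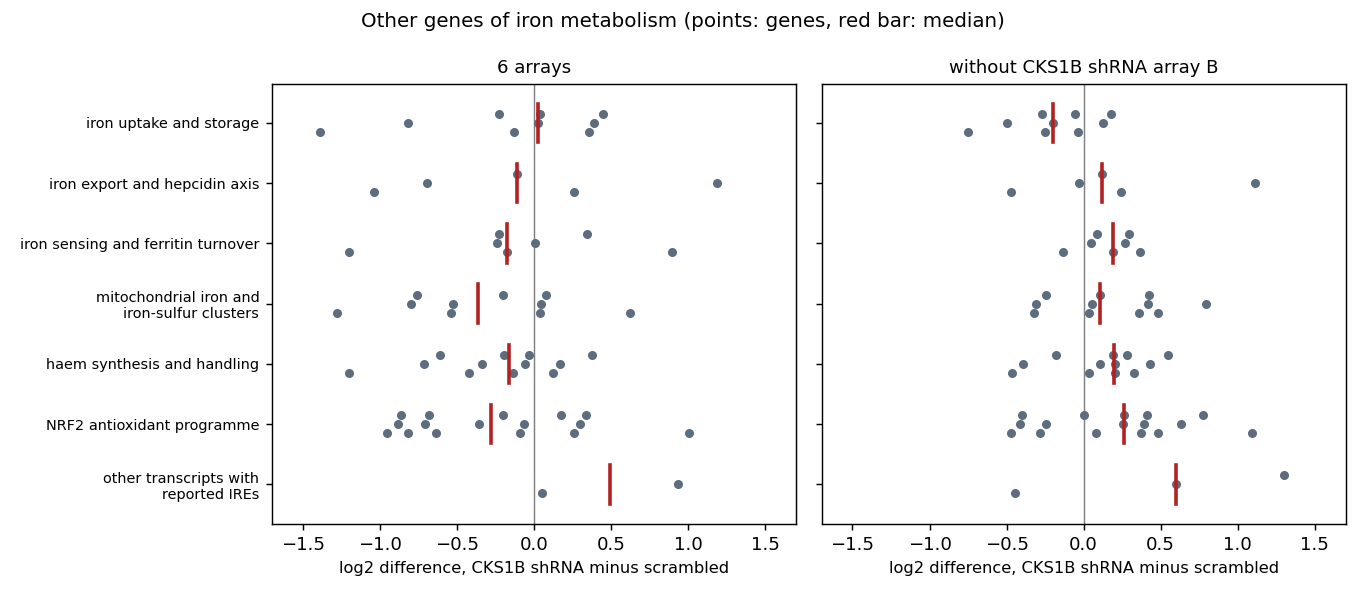
Log2 difference (CKS1B shRNA minus scrambled shRNA) of each tested gene in 7 lists of iron metabolism, with 6 arrays on the left and without CKS1B shRNA array B on the right; points are genes and the red bar is the list's median. The NRF2 antioxidant list has a median of -0.28 with 6 arrays and 0.26 without array B.

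Markers of other cell types summed to their highest values on CKS1B shRNA array B in each of 4 lists. The median over all probe sets was highest on that array too, at 334, where the other arrays had 117.5 to 201.6. Individual markers on it read 91.2 to 438 for macrophages, 132 to 504 for erythroid cells, 322 to 1385 for hepatocytes and 72.7 to 1302 for stroma. Whether the sums rose beyond the raised median was not tested. The 5 macrophage markers named on the array summed to 187, 1162 and 196 on arrays A, B and C of the CKS1B shRNA, against 196, 389 and 310 on the scrambled arrays. The 4 erythroid markers summed to 472, 1240 and 577 with the CKS1B shRNA, against 530, 618 and 1225 with the scrambled shRNA. The 5 hepatocyte markers summed to 486, 3414 and 758 against 523, 746 and 1240 with the scrambled shRNA, and the 5 stromal markers to 603, 2042 and 1209 against 997, 1163 and 1458. None was at 0, and CD14 read 9.0, 438 and 30.2 with the CKS1B shRNA against 10.9, 8.2 and 73.3 with the scrambled shRNA. The 8 plasma cell markers summed to 31399, 15421 and 21311 with the CKS1B shRNA, against 31647, 31134.5 and 24042 with the scrambled shRNA. The part of these shifts in the values of the iron genes was not tested.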

How the data were processed

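The deposited table gives each probe set a linear intensity on each array. Per the submitters' processing notes these intensity values come from MAS5, with no version or parameters named. Each array had a 2% trimmed mean near 500, a scaling that leaves a compressed distribution compressed. The table held 54675 probe sets, and 62 controls were left out.

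Names came from the platform annotation, with current symbols by Entrez ID from RefSeq. Probe sets named with several genes (1801) or none (11721) were not used as genes. Values were turned into log2(value + 16), which understates changes of dim genes. The gene fit left out the dimmer 50% of probe sets by mean log2 value (below 7.34, or 145.8) and kept the brightest per gene, 12663 genes in all. All 8 measured members passed this filter through at least 1 probe set. The probe set fit took all 54613 without a filter. Both used limma 3.58.1 in R 4.3.3 (lmFit, eBayes with trend) and Benjamini-Hochberg adjustment over all features, with a threshold of 0.05. Without CKS1B shRNA array B the brightest probe set was chosen anew. The spread was then estimated over groups of 2 and 3 arrays. The number of arrays limits the precision.

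The members, lists and tests were chosen with earlier results of these data known. Named were the members, CKS1B, per list the genes past the threshold or else the smallest p in each direction, and the 5 genes most like FTH1P5 by Pearson's r. Fits were run on simulated data with noise independent between genes and no compression of bright probe sets. That run checked the code, and not how the fits behave on arrays like these. Sequences are from RefSeq (GRCh38.p14). Figures used Python 3.11.15 and matplotlib 3.10.9. Alternatives are listed in the closing section.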

Additional observations from a re-analysis of the deposited data

How the results depend on the processing

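With 6 arrays 0 genes and 0 probe sets passed in limma (373 and 965 at an unadjusted p under 0.05), and both counts held for other pseudocounts (1 and 64), quantile normalization, median centring and eBayes without trend. The count of genes also held with other filters and other ways to pick probe sets, which were run for genes only. Array weights gave 4 genes and 86 probe sets. Leaving out arrays gave 0 to 6 genes and 0 to 16 probe sets, above 0 only without CKS1B shRNA array B (6 and 11) or both arrays of letter B (1 and 16). The letter as a replicate block gave 0 and 0. Deviations from the group mean correlated between same-lettered arrays at r of 0.347, -0.16 and -0.153 for A, B and C. CKS1B shRNA array B weighs heavily on its group mean, so these values cannot show whether the letters pair the samples. The main fits took no pairing. Chosen after seeing the data, quantile normalization without CKS1B shRNA array B gave 2 genes and 2 probe sets, and the replicate block without it 100 and 395. Median centring moved the median of all genes from -0.08 to -0.31, and each member with it. Several members turned direction. With arrays left out the log2 difference ran from -0.98 to 2.75 for FTH1P5, -2.43 to 0.67 for FTL, -1.39 to 0.36 for NCOA4, -1.66 to 0.0835 for TFRC and -0.11 to 0.88 for HMOX1. FTH1P5 was -0.037 after quantile normalization of 6 arrays. With array weights FTL was 0.41 and NCOA4 0.13. With the replicate block and without CKS1B shRNA array B, FTL was 0.67, NCOA4 0.36 and TFRC 0.0585, and with quantile normalization of those 5 arrays NCOA4 was 0.10. ACO1 was 0.18 through probe sets without a suffix, where its brighter probe set is not allowed. The cause was not tested for the others. SLC40A1 and SLC11A2 kept their sign under all alternatives that tested them, though SLC11A2 was only -0.0172 without CKS1B shRNA array C. The filter at the 70th percentile left SLC40A1 out. Another probe set of each gene went the other way with 6 arrays, 233123_at of SLC40A1 at -1.01 and 237106_at of SLC11A2 at 2.36.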
